A study of Homo sapiens with 6 samples.

Results

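The 9 genes described here are markers by which stem-like cells of breast tumors are recognized: CD44, CD24, THY1, PROCR, PROM1, LGR5 and the aldehyde dehydrogenases ALDH1A1, ALDH1A3 and ALDH3A1. They were picked by gene symbol, with earlier results of these data known, and each was found at exactly 1 of the 74852 loci of the table. Expression was compared between MDA-MB-231 cells, an established line of triple-negative breast cancer (TNBC), transfected with control siRNAs (si-CTRL, 3 libraries) or with siRNAs against SAM68 (si-SAM68, 3 libraries). Sam68, an RNA binding protein encoded by KHDRBS1, acts on splicing, and the study asked which transcripts depend on it in TNBC cells. Cells of both groups underwent 2 rounds of transfection and, by the sample labels, were collected 24 h after the second one. The 4 siRNAs against SAM68 were transfected as a pool into cells of a single line, so that no value belongs to 1 siRNA.

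Stem-like cells are a fraction of a tumor that can renew itself and give rise to the other tumor cells. In breast cancer they are usually sorted as cells with much CD44, the surface receptor of hyaluronan, and little CD24, a small mucin-like protein anchored in the membrane by a lipid, or by a high activity of aldehyde dehydrogenase, an enzyme that oxidizes aldehydes including retinal. THY1 (CD90), another lipid-anchored glycoprotein, PROCR, the receptor of protein C, LGR5, a receptor of R-spondins, and PROM1 (CD133), a protein of membrane protrusions, mark stem cells of the mammary gland or of other tissues, and mesenchymal lines such as MDA-MB-231 are known for much CD44 and little CD24.

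The siRNAs of the si-SAM68 pool are shown as their sense strands, to set the markers' transcripts beside the bases that silence SAM68. Capitals mark bases 12 to 18, which equal the site that the seed of the guide strand (guide bases 2 to 8) can pair with.
si-SAM68 siRNA 1: gcacccauaugGACGUUAu
si-SAM68 siRNA 2: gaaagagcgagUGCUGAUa
si-SAM68 siRNA 3: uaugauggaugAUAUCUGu
si-SAM68 siRNA 4: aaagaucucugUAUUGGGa
All 4 matched the coding sequence of KHDRBS1 over their 19 bases, starting at positions 1478, 635, 941 and 746 of its transcript of 2757 bases in GENCODE release 29. A site of the 7 capital letters (with T for U) was searched on the sense strand of the longest 3'UTR of each marker. The 3'UTRs of THY1, PROCR, CD24 and ALDH3A1 held no site of either pool, whereas 26.2% of the 3'UTRs of 19113 genes held at least 1 site of the si-SAM68 pool and 50.1% at least 1 of the si-CTRL pool. CD44 held 1 site of si-SAM68 siRNA 3, at position 671 of its 3'UTR of 3069 bases, shown here with its surroundings and with the site in capitals.
CD44 site: attcataataaATATCTGtacttcttcgat
The 3'UTR of ALDH1A3 held 2 sites of siRNA 4 of the si-CTRL pool and none of the si-SAM68 pool. Of the markers with few or no reads, LGR5 held 1 site each of si-SAM68 siRNAs 3 and 4 and 1 of the si-CTRL pool, and ALDH1A1 and PROM1 held 1 site each of the si-CTRL pool.

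CD24 needs its sequence beside its values, because the table lists a single locus of this symbol, on chromosome Y (hg19, chrY:21152524-21550243). In RefSeq (GRCh38) the protein-coding gene lies on chromosome 6 and a pseudogene, CD24P4, on chromosome Y. The coding sequence of CD24 and the CD24P4 entry of GENCODE, both of 243 bases, are shown in full, with the bases that differ in capitals.
CD24, chromosome 6: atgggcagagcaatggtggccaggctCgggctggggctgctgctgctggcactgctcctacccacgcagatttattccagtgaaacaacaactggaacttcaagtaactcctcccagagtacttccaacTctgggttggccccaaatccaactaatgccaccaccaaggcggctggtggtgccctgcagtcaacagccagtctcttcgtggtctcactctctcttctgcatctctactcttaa
CD24P4, chromosome Y: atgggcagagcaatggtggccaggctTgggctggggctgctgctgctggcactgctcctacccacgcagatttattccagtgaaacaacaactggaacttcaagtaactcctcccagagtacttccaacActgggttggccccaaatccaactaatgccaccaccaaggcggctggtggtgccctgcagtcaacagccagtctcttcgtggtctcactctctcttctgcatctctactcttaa
The copies shared 241 of the 243 bases (99.2%) and differed by the substitutions C27T and T130A, counted from the first coding base with the chromosome 6 base first. The table gives no value for the chromosome 6 gene, so that reads of the copies cannot be told apart in it, and the locus is called CD24 in what follows. Besides CD24, 10 loci placed on chromosome Y had at least 10 normalized reads in every library, and the origin of their reads was not tested.

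The libraries held between 52625492 and 82568487 reads on all loci. All values are normalized read counts, that is, reads divided by the DESeq2 size factor of the library. KHDRBS1 had 15660, 14483 and 14737 normalized reads in the si-CTRL libraries and 583, 602 and 670 in the si-SAM68 libraries, or 4.13% of the control mean. A ribosomal RNA locus took 15.1% of the reads of si-SAM68 replicate 2 and between 1.83% and 3.17% elsewhere. Of 8 markers by which the line was checked, PGR was listed at 0 and ESR1, CDH1 and EPCAM did not pass the filter on low values, whereas ERBB2 (HER2) was present with 2822 normalized reads in the control and 2812 after silencing (means). Vimentin was abundant without a called difference. The epithelial keratins KRT8 and KRT18 were abundant and rose by 0.31 and 0.35 on the log2 scale, with adjusted p-values of 0.0436 and 0.0144 (limma), and their part in the results on the stem-like cell markers was not tested. Among 12 markers of leukocytes, endothelium, fibroblasts and nerve cells, COL1A1 and PDGFRB were expressed without a called difference. Over the 6 libraries COL1A1 had a mean of 158457 normalized reads and PDGFRB of 694, beside 149744 for vimentin. The other 10 summed to between 99.8 and 106 normalized reads in the si-CTRL libraries and between 79.6 and 97.5 in the si-SAM68 libraries. CD3E and DCN were at or near 0. Of the 12 markers 6 could be tested, COL1A1 and PDGFRB included, and none passed the test.

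Of the surface markers, THY1 was 1.63-fold and PROCR 1.51-fold lower in the si-SAM68 libraries. CD44 and ALDH1A3, the most abundant markers per length, gave no called difference, and CD24 was lower in every si-SAM68 library without passing the test. ALDH3A1 and PROM1 were close to the detection floor, and ALDH1A1 and LGR5 had no read at all.

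Differences were tested with limma on a log2 scale (normalized reads + 1) over 18849 loci whose mean was 10 or more, with Benjamini-Hochberg adjustment over all of them. Of the 9 markers, 5 passed this filter on low values. At an adjusted p under 0.05, 2 of these 5 were called lower and 0 higher, beside 6.23% of all tested loci called lower and 4.47% called higher. The thresholds of the study are a change of 1.5-fold or more with a p up to 0.05, taken here as unadjusted. Under them the fit used here called the same 2 lower, beside 4.83% of all loci. These calls were not compared with the study's own list of regulated genes. In 3 of the 5 every si-SAM68 library lay below every si-CTRL library, beside 17.3% of all loci. The median log2 fold change of the 5 was -0.35 and that of all tested loci 0.01. With 5 genes these counts are a description of the markers and were not tested against other genes. In these bulk samples, fewer cells that carry a marker and less RNA in each cell cannot be told apart. The study's methods describe a harvest in triplicate, without saying whether the replicates came from separate cultures, so the p-values measure only the spread between these libraries.

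**Figure D1:**
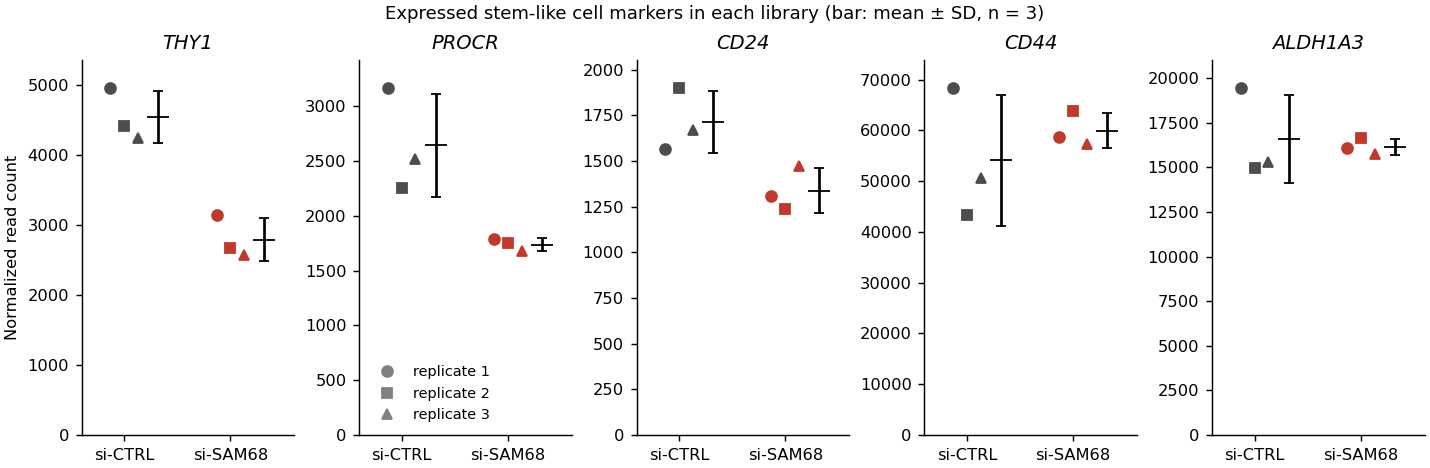
Normalized read count (vertical axes, from 0, a different scale in each panel) of the 5 expressed markers in the 3 si-CTRL (grey) and 3 si-SAM68 (red) libraries, with the mean and SD beside each group. THY1, PROCR and CD24 show no overlap between the groups, whereas in CD44 and ALDH1A3 the si-SAM68 libraries lie inside the span of the control.

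THY1 (locus GSHG0006252, hg19 chr11:119288652-119295695) is a membrane glycoprotein of fibroblasts, neurons and mesenchymal cells that binds integrins of neighboring cells. The si-CTRL libraries held 4962, 4423 and 4247 normalized reads and the si-SAM68 libraries 3145, 2668 and 2567. The highest si-SAM68 library thus lay under the lowest si-CTRL library. The mean went from 4544 ± 373 (SD, n = 3) to 2793 ± 309 (SD, n = 3). The fit, which averages log2 values, gave a 1.63-fold lower level with a 95% interval from 1.40 to 1.90. The log2 fold change was -0.70 (SE 0.099), and THY1 fell with an adjusted p of 0.00288 (limma, Benjamini-Hochberg). THY1 was called in all 17 alternative analyses, with adjusted p-values up to 0.0332 in limma without a trend, and its log2 fold change lay between -0.79 and -0.64 over the 6 fits with 1 library fewer. Of all tested loci, 4.18% had a lower log2 fold change. USP2-AS1, a long locus that overlaps THY1, had a mean of 73.1 normalized reads and a log2 fold change of -0.21 with an adjusted p of 0.511 (limma).

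PROCR (GSHG0018704, hg19 chr20:33759740-33765164), also called EPCR, binds protein C on the surface of endothelial and other cells and marks multipotent cells of the mouse mammary gland. It had 3168, 2255 and 2514 normalized reads in the si-CTRL libraries and 1788, 1751 and 1676 in the si-SAM68 libraries. Again the groups did not overlap, and the si-SAM68 libraries lay much closer to each other than the control libraries. The mean was 2646 ± 471 (SD, n = 3) in the control and 1738 ± 57.4 (SD, n = 3) after silencing. The fit, which averages log2 values, gave a 1.51-fold lower level with a 95% interval from 1.25 to 1.81. PROCR fell by 0.59 on the log2 scale (SE 0.119), with an adjusted p of 0.0141 (limma, Benjamini-Hochberg). This call was lost in 3 of 17 alternatives, at an adjusted p of 0.0684 in limma without a trend, and at 0.0521 and 0.0796 when replicate 1 or replicate 3 of si-SAM68 was left out. When the highest library, si-CTRL replicate 1, was left out, PROCR kept its call with a log2 fold change of -0.45, whose fold is under the 1.5 of the study's thresholds, as was that without si-SAM68 replicate 3 (-0.57). The locus of EDEM2 and MMP24-AS1, which spans PROCR, held 2734 normalized reads in the mean and rose by 0.31 on the log2 scale with an adjusted p of 0.0305 (limma), the opposite direction. Whether strand was used in counting is not given in the sources used here, so reads can be shared between such overlapping loci.

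**Figure D2:**
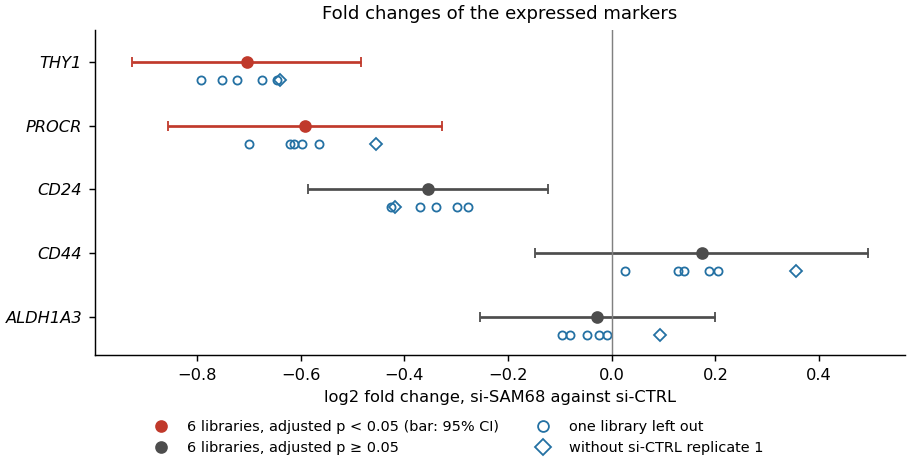
log2 fold change of si-SAM68 against si-CTRL (horizontal axis) of the 5 expressed markers, with the 95% interval of the fit over 6 libraries (filled, red where the adjusted p was under 0.05) and, as open symbols, the value with each library left out, a diamond standing for si-CTRL replicate 1. THY1 and PROCR lie to the left of 0 in every fit, CD44 ranges from 0.02 to 0.36, and ALDH1A3 moves to the right of 0, at 0.09, only without si-CTRL replicate 1.

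CD44 (GSHG0004753, hg19 chr11:35160417-35253942) was the most abundant marker. Its values were 68397, 43246 and 50680 normalized reads in the si-CTRL libraries and 58743, 63830 and 57327 in the si-SAM68 libraries. All si-SAM68 values lay inside the range of the control, whose coefficient of variation was 23.9% against 5.70% after silencing. The mean was 54108 ± 12921 (SD, n = 3) in the control and 59966 ± 3420 (SD, n = 3) after silencing. The log2 fold change of 0.17 had a 95% interval from -0.15 to 0.49 and an adjusted p of 0.476 (limma), so that no difference was called and changes of this range were not resolved. The value depended on si-CTRL replicate 1, which held 1.46 times the mean of the other 2 control libraries. Without it the log2 fold change was 0.36 with an adjusted p of 0.0134 (limma), a call as higher. The counts are summed over the whole locus, so the variant exons of CD44, a known substrate of Sam68, were not measured here. The study itself examined a CD44 exon by RT-PCR in MDA-MB-231 cells and counts it among the targets of Sam68.

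CD24 (GSHG0032516) had 1566, 1901 and 1672 normalized reads in the control and 1307, 1236 and 1473 after silencing. Every si-SAM68 library was below every si-CTRL library, by a small gap between 1566 and 1473. The mean went from 1713 ± 171 (SD, n = 3) to 1339 ± 122 (SD, n = 3), a log2 fold change of -0.35 (SE 0.104) with a 95% interval from -0.59 to -0.12. Its adjusted p of 0.0571 (limma, Benjamini-Hochberg) missed the threshold. CD24 passed it in 3 of 17 alternatives, with 0.0469 at a minimum mean of 50, 0.0178 in DESeq2 and 0.0138 without si-CTRL replicate 1, whereas edgeR gave 0.0514.

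The ratio of CD44 to CD24, by which stem-like cells are sorted at the level of protein, was calculated from the normalized reads of each library. It was 43.7, 22.7 and 30.3 in the si-CTRL libraries and 45.0, 51.6 and 38.9 in the si-SAM68 libraries. The groups overlapped through si-CTRL replicate 1, which had the highest CD44 and the lowest CD24 value of its group. The mean ratio was 32.2 ± 10.6 (SD, n = 3) in the control and 45.2 ± 6.36 (SD, n = 3) after silencing. A two-sided exact permutation test on the log2 ratios gave p = 0.2, where the smallest possible p is 0.1 with these groups.

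Among the aldehyde dehydrogenases, ALDH1A3 (GSHG0010209, hg19 chr15:101419897-101456829), an enzyme that makes retinoic acid from retinal, was the abundant one of the 3 markers. Its values were 19464, 14994 and 15323 in the si-CTRL libraries and 16106, 16645 and 15754 in the si-SAM68 libraries. The si-SAM68 libraries lay between the control libraries, of which replicate 1 held 1.28 times the mean of the other 2. The means were 16594 ± 2491 and 16168 ± 449 (SD, n = 3 each), the log2 fold change was -0.03 with a 95% interval from -0.25 to 0.20, and the adjusted p was 0.893 (limma). A locus without a symbol that overlaps ALDH1A3 (GSHG0010767, hg19 chr15:101432548-101459488), chosen for this overlap, held 332, 308 and 300.4 normalized reads in the control and 549, 545 and 441 after silencing. It did not overlap between the groups and rose by 0.70 on the log2 scale with an adjusted p of 0.00765 (limma), while ALDH1A3 itself was not called.

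ALDH3A1 (GSHG0013184, hg19 chr17:19641300-19651746), which oxidizes aldehydes of lipid peroxidation, had 6, 6 and 6 reads in the control and 10, 0 and 2 after silencing. In normalized reads these were 7.50, 5.81 and 5.70 against 10.1, 0 and 2.23, with p = 0.5 in a two-sided exact permutation test on the normalized reads. PROM1 (GSHG0023150, hg19 chr4:15969849-16085668) had 0, 0 and 2 reads in the control and 0, 2 and 4 after silencing, with p = 0.7 in the same exact permutation test. Both failed the filter, and at this depth no difference in them was detectable. ALDH1A1 (GSHG0030882, hg19 chr9:75515578-75695358), the dehydrogenase of which the activity of stem-like cells is best known, and LGR5 (GSHG0006842, hg19 chr12:71833549-71980086) had 0 reads in all 6 libraries. A count of 0 allows up to 3 reads, which correspond to 2.76 to 3.75 normalized reads depending on the library, and this limit covers counting error only.

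Levels of different markers were compared per kilobase of the longest coding transcript in GENCODE. In the control CD44 came first with 9440 normalized reads per kilobase, followed by ALDH1A3 with 4229, PROCR with 1963, THY1 with 1278 and CD24 with 682. After silencing the order was the same, with 10462, 4120, 1290, 786 and 533. ALDH3A1 and PROM1 were far below in both groups, at 3.29 and 0.146 per kilobase in the control and 2.13 and 0.483 after silencing. In the control the ranges of neighbors in this order did not overlap down to CD24, but each level depends on the transcript chosen for its length. For CD24 the reads of the chromosome Y locus were divided by the length of a chromosome 6 transcript (2513 bases). The place of CD24 in the order is therefore less certain.

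**Figure D3:**
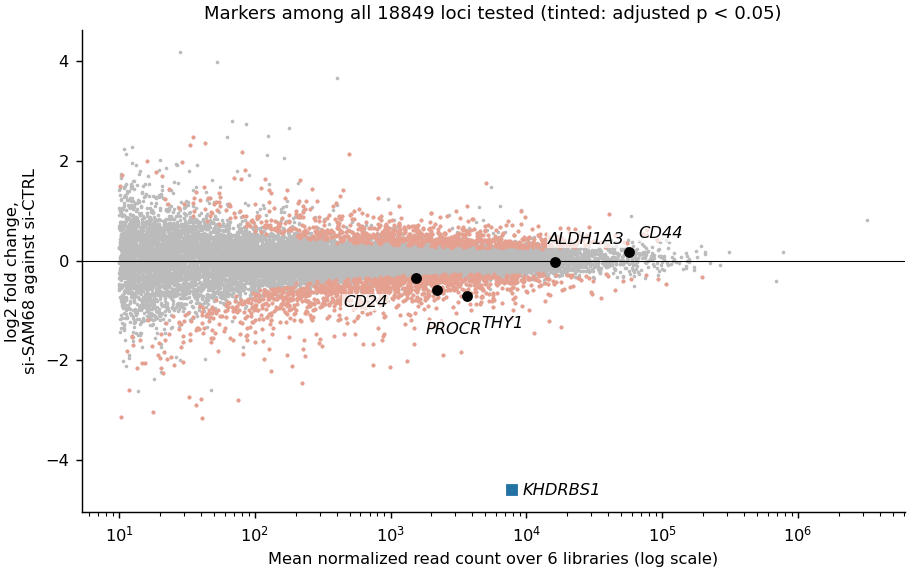
log2 fold change (vertical axis) against the mean normalized read count over 6 libraries (horizontal log axis) of the 18849 tested loci, tinted where the adjusted p was under 0.05, with the 5 expressed markers as black points and KHDRBS1 as a blue square. The markers lie close to the bulk of the loci, with THY1 at -0.70 and PROCR at -0.59, while KHDRBS1 stands far below at -4.60.

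The genes whose profile was most like that of THY1 over the 6 libraries, among 12186 loci with a symbol and a mean of at least 100, were RBPMS2, FGFR3 and the locus of CBS and CBSL, with a Pearson r of 0.998 each. For PROCR they were NOC4L, PDE8A and CRCP, with an r of 0.997 each. These values are a description without a test, since the difference between the groups enters each of them.

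Genes that act with the markers were taken from 9 lists. Without the markers and KHDRBS1, 94 of their genes could be tested, of which 9 were called higher (9.57%) and 12 lower (12.8%). Of all tested loci 4.47% were called higher and 6.23% lower. The median log2 fold change of the 94 genes was 0.02. Like the markers, the lists were chosen with earlier results of these data known. The shares given for them, here and below, are a description and were not tested. Hyaluronan is a ligand of CD44, and its genes were listed together with other ligands of CD44. Of 11 tested genes of hyaluronan synthesis, breakdown and binding or of other CD44 ligands, 4 fell, 1 rose and 6 were not called. HAS3, a hyaluronan synthase, rose from 463 to 875 normalized reads in the mean, a log2 fold change of 0.92 with an adjusted p of 0.00271 (limma). HAS2, the other tested synthase and named here after its values were seen, moved the opposite way, from 427 to 272, with a log2 fold change of -0.63 and an adjusted p of 0.0358 (limma). Both genes act in the same step, and the sum of their products was not measured. CEMIP and TMEM2, which take part in the breakdown of hyaluronan outside the cell, fell by 0.59 and 0.47 on the log2 scale, with adjusted p-values of 0.0119 and 0.00813 (limma). The call of HYAL3 (-0.37, adjusted p 0.0261) rests on a locus that also joins IFRD2 and NAT6.

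CD44 is cut from the surface by the proteases ADAM10 and ADAM17 and then within the membrane by the gamma-secretase, and it is tied to actin by ezrin, radixin and moesin. Of 11 tested genes of this group 3 rose (27.3%), 0 fell and 8 were not called. Of all tested loci 4.47% were called higher and 6.23% lower. ADAM17 had 1784, 1551 and 1513 normalized reads in the control and 2275, 2384 and 2398 after silencing, and rose by 0.55 on the log2 scale with an adjusted p of 0.00574 (limma). ADAM10 rose from a mean of 6315 to 7973, by 0.34 on the log2 scale with an adjusted p of 0.0156 (limma). NCSTN, a subunit of the gamma-secretase, was higher by 0.28 with an adjusted p of 0.0423. The groups did not overlap in these 3 genes, which is no further support, because the genes were named for their calls. Of 13 tested regulators of splicing with known effects on CD44 exons, 1 fell, which was KHDRBS1 itself, 0 rose and 12 were not called.

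The partners of the other surface markers gave 3 lists, to be read against the 6.23% and 4.47% of all tested loci called lower and higher. In the protein C pathway 1 of 7 tested genes fell, 0 rose and 6 were not called, and the gene that fell was TFPI, the inhibitor of tissue factor, at 6703 normalized reads in the control and 5220 after silencing (means, log2 fold change -0.36, adjusted p 0.0111 in limma). Of 9 tested binding partners of THY1 and CD24, 1 rose, 2 fell and 6 were not called. ITGAX and ITGB3, subunits of integrins that bind THY1, fell by 0.69 and 0.44 on the log2 scale, with adjusted p-values of 0.0188 and 0.0113 (limma), the latter at a locus that also joins EFCAB13. L1CAM, a neural adhesion molecule that binds CD24, rose by 0.39 with an adjusted p of 0.0397 (limma). In the R-spondin pathway, where LGR5 itself had no reads, RNF43 rose in 1 call among 6 tested genes, with 5 not called. RNF43, the ubiquitin ligase that removes Wnt receptors, had 73.7, 75.5 and 80.8 normalized reads in the control and 185, 181 and 162 after silencing (log2 fold change 1.19, adjusted p 0.00152 in limma).

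**Figure D4:**
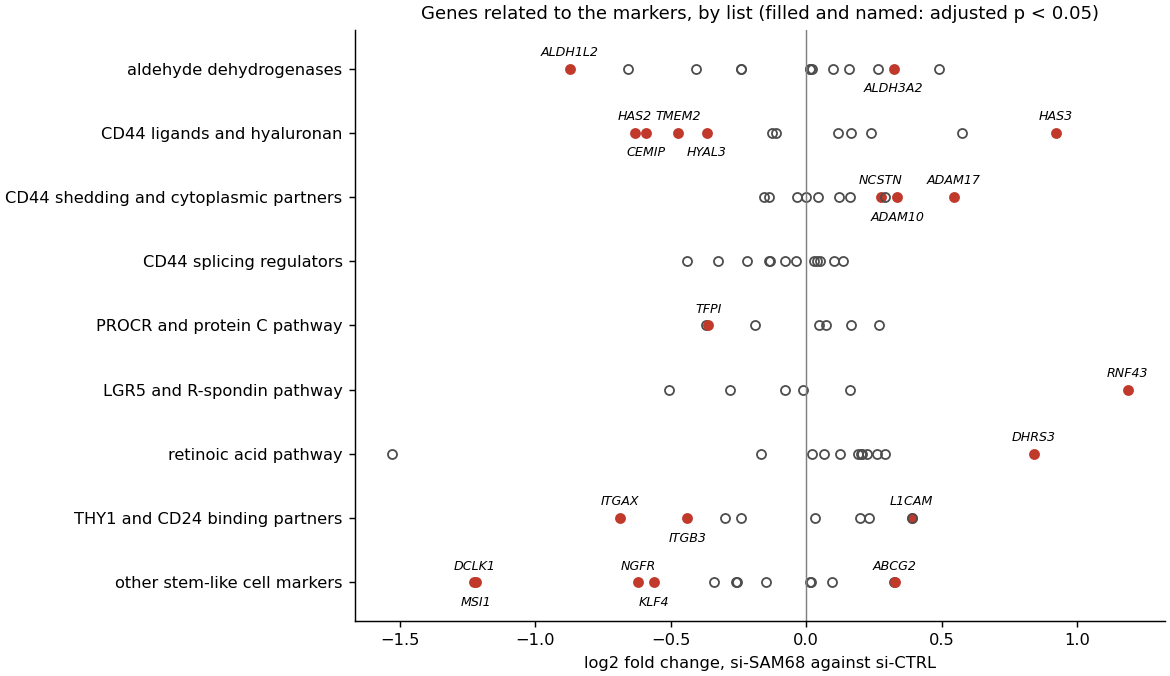
log2 fold change of si-SAM68 against si-CTRL (horizontal axis) of the tested genes of 9 lists related to the markers, without the markers and KHDRBS1, filled and named where the adjusted p was under 0.05. Called genes stand on both sides of 0, with RNF43 at 1.19 farthest to the right and DCLK1 and MSI1, at -1.23 and -1.22, farthest to the left among them.

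Of 14 tested aldehyde dehydrogenases, ALDH1A3 included, 1 rose, 1 fell (7.14% each) and 12 were not called. Of all tested loci 4.47% were called higher and 6.23% lower. ALDH1L2, a mitochondrial enzyme of folate metabolism, fell from a mean of 269 to 143 normalized reads (log2 fold change -0.87, adjusted p 0.0238 in limma), and ALDH3A2, which oxidizes fatty aldehydes, rose from 2391 to 2989 (0.32, adjusted p 0.0320 in limma). Of 12 tested genes of retinoic acid synthesis, breakdown and response, 1 rose (8.33%), 0 fell and 11 were not called. DHRS3, which reduces retinal back to retinol, was that gene, with 344, 428 and 337 normalized reads in the control and 822, 601 and 580 after silencing, an increase of 0.84 on the log2 scale with an adjusted p of 0.00985 (limma). Its locus also joins MIR6730.

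Further markers used for stem-like cells gave 4 calls as lower and 1 as higher among 13 tested genes, with 8 not called. These are 30.8% lower and 7.69% higher, beside 6.23% and 4.47% of all tested loci. This list too was chosen with earlier results of these data known, so its shares are a description and were not tested. DCLK1, a kinase that binds microtubules, had 204, 224 and 218 normalized reads in the control and 82.6, 93.8 and 98.3 after silencing, a decrease of 1.23 on the log2 scale with an adjusted p of 0.00109 (limma). MSI1, an RNA binding protein of neural stem cells, had 110.0, 123 and 95.1 against 55.4, 39.6 and 44.7 (log2 fold change -1.22, adjusted p 0.00619 in limma). The groups lay far apart in both genes, which is no further support, because the genes were named for their calls. NGFR, a receptor of neurotrophins, and KLF4, a transcription factor of pluripotency, fell by 0.62 and 0.56 on the log2 scale with adjusted p-values of 0.0159 and 0.0259 (limma). ABCG2, the transporter behind the side population of dye-excluding cells, was the gene that rose, by 0.33 with an adjusted p of 0.0439 (limma), and it was named after its values were seen.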

How the data were processed

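Polyadenylated RNA of MDA-MB-231 cells was sequenced in 3 si-CTRL and 3 si-SAM68 libraries, grouped by their labels. The deposited values are a signal: reads that the authors counted per FAST DB locus (genome build hg19) and scaled by DESeq2 size factors. The submitters' processing notes name STAR 2.4.0, SAMtools, Picard, FastQC and DESeq2, and the counting program is not given in the sources used here. The labels name another culture medium, RNA extraction kit and harvest time than the methods of the study. All values of a library (100%) were multiples of 1 step within a tolerance of 0.001 relative to the multiple. The largest distance was 0.00329 steps, in si-SAM68 replicate 2, and the multiples were used as reads.

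Limma 3.58.1 in R 4.3.3 (lmFit, eBayes with a trend) was fitted on log2(normalized read count + 1) for loci with a mean of at least 10, so that fold changes of low genes are understated. P-values were adjusted by Benjamini-Hochberg across 18849 loci. Alternatives used pseudocounts of 0.1 or 5, no filter, a minimum mean of 50, TMM and quantile scaling, no trend, a replicate block, each library left out, and edgeR 4.0.16 and DESeq2 1.42.0 on the recovered reads. edgeR with the block was chosen after seeing the data. On these reads edgeR called 2026 loci. The deviations of same-numbered libraries from their group means correlated at 0.105, 0.231 and 0.125, and those of other pairs at most at 0.00687. The labels do not say what a number marks. The main fit took the libraries as unpaired, and a pairing by number entered only as the replicate block among the alternatives. The scripts were tested on simulated data.

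The markers and lists were chosen with earlier results of these data known. Named are all markers, KHDRBS1, up to 4 called genes of each list by adjusted p or otherwise the 2 most abundant, and the 3 loci most like THY1 and PROCR. Sequences came from GENCODE release 29 and the study's list of siRNAs, and were not used for position.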

Additional observations from a re-analysis of the deposited data

How the results depend on the processing

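Of the 5 tested markers, CD44, CD24, THY1 and PROCR kept their direction in all 17 alternatives, unlike ALDH1A3, whose log2 fold change was between -0.095 and 0.093 with 1 library left out, and above 0 only without si-CTRL replicate 1 (0.093, adjusted p 0.322, limma). Of the markers, 2 were called, and this became 1 in limma without a trend, which also lowered the calls over all loci from 2017 to 899. Leaving out each library in turn gave 1 to 4 called markers, 1 to 2 markers at the study's thresholds, 625 to 2839 called loci (625 without si-SAM68 replicate 3, 808 without replicate 2, 923 without replicate 1 and 1103 without si-CTRL replicate 3) and 1301 to 1831 loci at the study's thresholds. The latter were 1445 in all 6 libraries and 2240 without the filter on low values. The replicate block gave THY1 an adjusted p of 0.00465 and PROCR 0.0190, changed no marker's call and called 1697 loci. Without si-SAM68 replicate 2, the library with much ribosomal RNA, THY1 (0.0173) and PROCR (0.0492) kept their calls in limma. TMM and quantile scaling changed no marker's direction. The precision is limited by 3 libraries per group, and that of ALDH3A1, PROM1, ALDH1A1 and LGR5 by their depth of at most 10 reads.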
